A study of Mus musculus with 4 samples.

Results

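The secreted antagonists of Wnt signalling were followed here as 10 genes, Sfrp1, Sfrp2, Sfrp4, Sfrp5, Frzb, Wif1, Dkk1, Dkk2, Dkk3 and Notum. They were taken by symbol, and all 10 of 10 symbols were present among the 32285 genes of the spatial count matrices. The data are 4 tissue sections on Visium slides, on which each spot captures the polyadenylated RNA of a small area under a spatial barcode, so that a spot can hold several cells of different types. There was 1 section at E13.5, 1 at E16.5 (embryonic days), and 2 sections of esophagus from neonates on postnatal day 0 (P0). All 4 were wild type (WT) and untreated, and were cut at 8 µm from fresh frozen tissue. The sample titles name embryonic esophagus for the E13.5 and E16.5 sections, whereas the tissue label reads mouse embryo, and these sections held heart, liver-list, bone, cartilage, muscle, neural and epithelial markers. The labels do not say which animal a section came from.

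Wnt proteins are lipid-modified secreted ligands that bind Frizzled receptors with the co-receptors Lrp5 and Lrp6 and stabilise beta-catenin, which acts on transcription with TCF/LEF factors. The secreted Frizzled-related proteins, among them Frzb, carry a Frizzled-type cysteine-rich domain and bind Wnts outside the cell, and Wif1 binds Wnts through its own WIF domain. Dkk1 and Dkk2 act on Lrp5 and Lrp6 together with Kremen proteins, Dkk3 is a divergent family member whose place in Wnt signalling is less settled, and Notum is an extracellular enzyme that removes the lipid that Wnts need. In the developing gut, skeleton and skin these proteins shape where Wnt signals act, and Lgr5, which the study's title names, is a receptor for R-spondins, which strengthen Wnt signals.

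RefSeq promoter sequence (GRCm38.p6) was at hand for 6 of the 10 genes, taken as the 250 bases before the annotated start. The promoters of Dkk1, Wif1 and Sfrp5 are shown because these genes led in skeletal or neural spots of the embryo sections, Dkk1 in bone-rich spots, Wif1 in cartilage-rich spots at E16.5 and Sfrp5 in sensory ganglion-rich spots. Both strands were searched for 5 motifs. The letters taken for a TCF/LEF site were CTTTGAT or CTTTGTT. Those of a GLI site were GACCACCCA. The GC box was searched as GGGCGG. The TATA box was searched as TATAAA, and the CArG box by its name's consensus. Capitals mark the matches on either strand, none of which overlapped.
Dkk1 (chr19:30549497-30549746, minus strand): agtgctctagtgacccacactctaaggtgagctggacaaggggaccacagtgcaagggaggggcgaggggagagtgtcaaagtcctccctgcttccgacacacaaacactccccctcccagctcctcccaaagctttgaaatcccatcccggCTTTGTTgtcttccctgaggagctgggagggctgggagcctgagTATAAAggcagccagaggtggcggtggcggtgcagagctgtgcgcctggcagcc
Wif1 (chr10:121033754-121034003, plus strand): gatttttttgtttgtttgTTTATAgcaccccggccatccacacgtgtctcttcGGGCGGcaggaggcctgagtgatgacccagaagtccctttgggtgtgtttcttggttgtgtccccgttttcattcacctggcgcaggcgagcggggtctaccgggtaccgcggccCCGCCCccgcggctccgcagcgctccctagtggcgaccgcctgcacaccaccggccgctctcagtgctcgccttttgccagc
Sfrp5 (chr19:42202253-42202502, minus strand): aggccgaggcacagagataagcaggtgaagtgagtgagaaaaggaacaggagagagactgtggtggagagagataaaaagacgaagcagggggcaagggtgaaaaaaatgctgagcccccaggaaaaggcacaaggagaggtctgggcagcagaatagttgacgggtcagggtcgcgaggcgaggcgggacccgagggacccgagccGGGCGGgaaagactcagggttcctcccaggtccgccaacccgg
The Dkk1 stretch held 1 TCF/LEF match and 1 TATA box, the Wif1 stretch 2 GC boxes and 1 TATA box, and the Sfrp5 stretch 1 GC box. Of 32851 promoters of this length, 8.06% held the TCF/LEF letters, 12.4% a TATA box, 32.7% a GC box, 1.47% a CArG box and 0.225% the GLI letters. The Frzb stretch held 1 GC box. The Sfrp2 stretch lies inside the annotated gene span and the Dkk2 stretch runs past its start, so their matches are not given. A match describes letters and is neither a bound site nor a cause of any level given below.

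After spots under 500 unique molecular identifiers (UMIs, 1 per captured transcript) were left out, 3220 spots at E13.5, 3588 at E16.5, and 363 and 264 in the P0 sections remained. They held 98643829, 105834164, 10260709 and 7356008 UMIs, and the median spot had between 25465 and 29289 UMIs. Haemoglobin and other blood markers took 2.44% and 5.06% of UMIs at E13.5 and E16.5, and 0.0866% and 0.0777% in the P0 sections. Of the kept spot barcodes, 2567, 2697, 359 and 260 also occurred in another section, as barcodes of a fixed slide layout do. A level is the number of UMIs of a gene in 1000000 (CPM), and its exact Poisson 95% interval covers counting error only. A UMI stands for a captured transcript whatever its length, and levels of different genes are compared only as UMIs captured.

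Sfrp1, Sfrp2 and Dkk3 made up most of the antagonist UMIs in every section, and the other members were sparse in the neonatal esophagus. Together the 10 genes had 408 CPM at E13.5, 238 CPM at E16.5, and 271 and 238 CPM in the P0 sections. Sfrp1, Sfrp2 and Dkk3 held 81.1% and 77.2% of this sum at E13.5 and E16.5, and 97.6% and 93.9% in the P0 sections, and at E13.5 Frzb had more UMIs than Dkk3. Dkk1 was the only member without a UMI at P0.

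**Figure D1:**
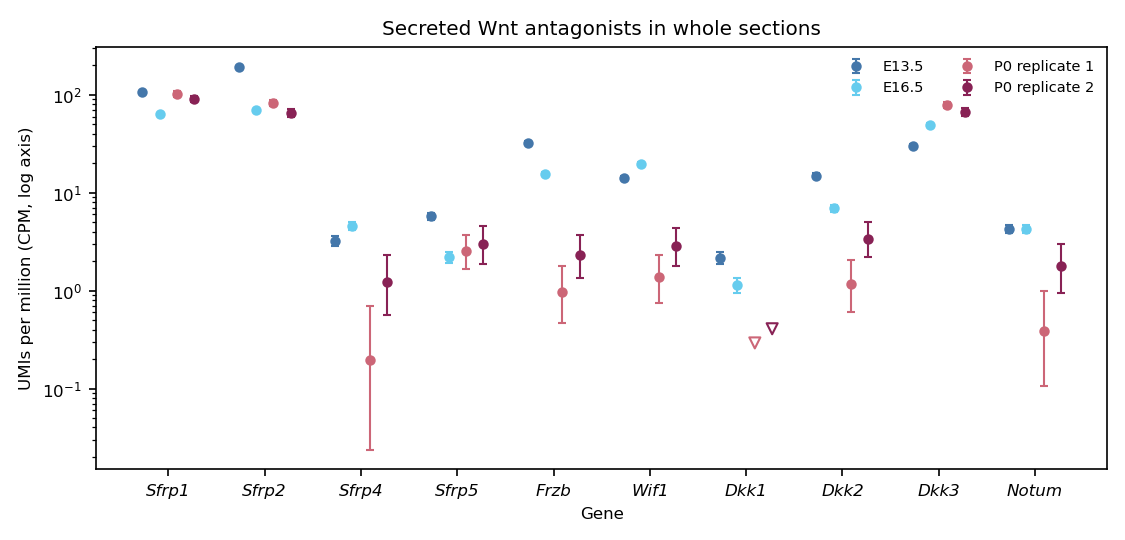
Level of each of the 10 genes in the 4 sections, in CPM on a log axis, with exact Poisson 95% intervals. Open triangles are the limits of 0.292 and 0.408 CPM that 3 UMIs give for Dkk1, which had 0 UMIs in both P0 sections; Sfrp1, Sfrp2 and Dkk3 lie above 30 CPM in all 4 sections.

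Sfrp1 (ENSMUSG00000031548, chr8:23411383-23449632) binds Wnts and Frizzled receptors outside the cell. It had 106 CPM at E13.5 (interval 104 to 109), 63.9 CPM at E16.5 (62.4 to 65.5), and 102 CPM (96.1 to 109) and 91.2 CPM (84.4 to 98.4) in the P0 sections. The P0 mean was 96.7 ± 7.79 CPM (SD, n = 2), and E16.5 was the lowest section. Sfrp2 (ENSMUSG00000027996, chr3:83765750-83774314), a close relative, had 194 CPM (191 to 196) at E13.5, 70.4 CPM (68.9 to 72.1) at E16.5, and 82.6 and 65.3 CPM at P0. E13.5 stood above the other 3 sections for Sfrp2, and the P0 mean of 73.9 ± 12.3 CPM (SD, n = 2) lay around the E16.5 level. Dkk3 (ENSMUSG00000030772, chr7:112116019-112159482) had the reverse order, with 30.3 CPM (29.3 to 31.4) at E13.5, 49.8 CPM (48.4 to 51.1) at E16.5, and 79.5 and 67.2 CPM at P0. Its P0 sections averaged 73.3 ± 8.75 CPM (SD, n = 2) and were both above both embryo sections. The sections differ in tissue as well as in age, so stage and tissue content cannot be told apart in these levels, and neither can fewer cells of a type and less RNA per cell.

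Frzb (ENSMUSG00000027004, chr2:80411970-80447396), a Frizzled-related protein first known from cartilage, had 32.5 CPM at E13.5, 15.5 CPM at E16.5, and 0.975 CPM (10 UMIs) and 2.31 CPM (17 UMIs) in the P0 sections. Wif1 (ENSMUSG00000020218, chr10:121034004-121100642) had 14.2 and 19.6 CPM at E13.5 and E16.5, and 1.36 CPM (14 UMIs) and 2.85 CPM (21 UMIs) at P0. Both genes were thus lower in both P0 sections than in either embryo section. Dkk2 (ENSMUSG00000028031, chr3:132085266-132180304) had 14.97 CPM at E13.5, 6.91 CPM at E16.5, and 1.17 CPM (12 UMIs) and 3.40 CPM (25 UMIs) at P0. Sfrp5 (ENSMUSG00000018822, chr19:42197971-42202252) had 5.75 CPM at E13.5, 2.18 CPM at E16.5, and 2.53 CPM (26 UMIs) and 2.99 CPM (22 UMIs) at P0. The Sfrp5 intervals of the P0 sections, 1.65 to 3.71 and 1.87 to 4.53 CPM, overlapped that of E16.5, 1.91 to 2.48 CPM.

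Notum (ENSMUSG00000042988, chr11:120653788-120661193) had 4.27 CPM at both E13.5 and E16.5, and 0.390 CPM (4 UMIs) and 1.77 CPM (13 UMIs) at P0. Sfrp4 (ENSMUSG00000021319, chr13:19623175-19632825) had 3.20 and 4.60 CPM at E13.5 and E16.5, and 0.195 CPM (2 UMIs) and 1.22 CPM (9 UMIs) at P0. For both genes the embryo sections were above both P0 sections. Dkk1 (ENSMUSG00000024868, chr19:30545876-30549496), the founding Dickkopf protein, had 2.15 CPM (212 UMIs) at E13.5 and 1.13 CPM (120 UMIs) at E16.5. At P0 it had 0 UMIs in both sections, where 3 UMIs would be 0.292 and 0.408 CPM. The upper ends of the 95% intervals were 0.360 and 0.501 CPM. The 2 P0 sections hold few spots, so that a low level of Dkk1 was not detectable at this depth.

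Between the single embryo sections, 4 of the 10 members differed by more than 2-fold. The E16.5 over E13.5 ratio was 0.364 for Sfrp2 (0.354 to 0.374), 0.380 for Sfrp5 (0.324 to 0.443), 0.461 for Dkk2 and 0.477 for Frzb, all lower at E16.5. Of the 18900 genes with enough UMIs for this comparison, 8.12% were past 2-fold lower and 24.1% past 2-fold in either direction. The ratio was 0.528 for Dkk1, 0.600 for Sfrp1, 1.001 for Notum, 1.38 for Wif1, 1.44 for Sfrp4 and 1.64 for Dkk3. With composition-adjusted (TMM) scaling, which moved every log2 ratio up by 0.127, Frzb and Dkk2 were no longer past 2-fold and 2 members remained. There was 1 section a stage, so no test was made, and the ratios describe these 2 sections.

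The members differed in how confined they were. The 2% of spots richest in Dkk1 held 85.8% of its UMIs at E16.5 and 62.7% at E13.5. For Sfrp5 this share was 55.4% at E16.5 and 38.8% at E13.5, and for Sfrp4 38.6% and 59.8%. Sfrp1 and Dkk3 were spread most widely, with 21.1% and 17.5% at E16.5 and 14.1% and 18.6% at E13.5 in such spots. These shares also depend on how many UMIs a gene has, since a gene with few UMIs can occupy few spots.

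To place the genes in tissue, spots were ranked by marker lists, and the highest 2% of an embryo section were called rich in that tissue if the markers stood at least 5-fold above the remaining spots. This left 21 usable tissue sets at E13.5 and 23 at E16.5 of 28 lists. Sets can overlap and are mixtures, their intervals cover counting error only, and spread of RNA between neighbouring spots was not tested. A set of the same name need not hold the same tissue at both stages: mucosal epithelium markers had 11042 CPM in their set at E16.5 and 216 CPM at E13.5, and liver markers 220 CPM at E16.5 and 16684 CPM at E13.5. The E16.5 set from the liver list, with few liver transcripts, and the kidney sets, with 142 CPM of markers at E16.5 and 247 CPM at E13.5, are therefore not called by those tissue names.

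**Figure D2:**
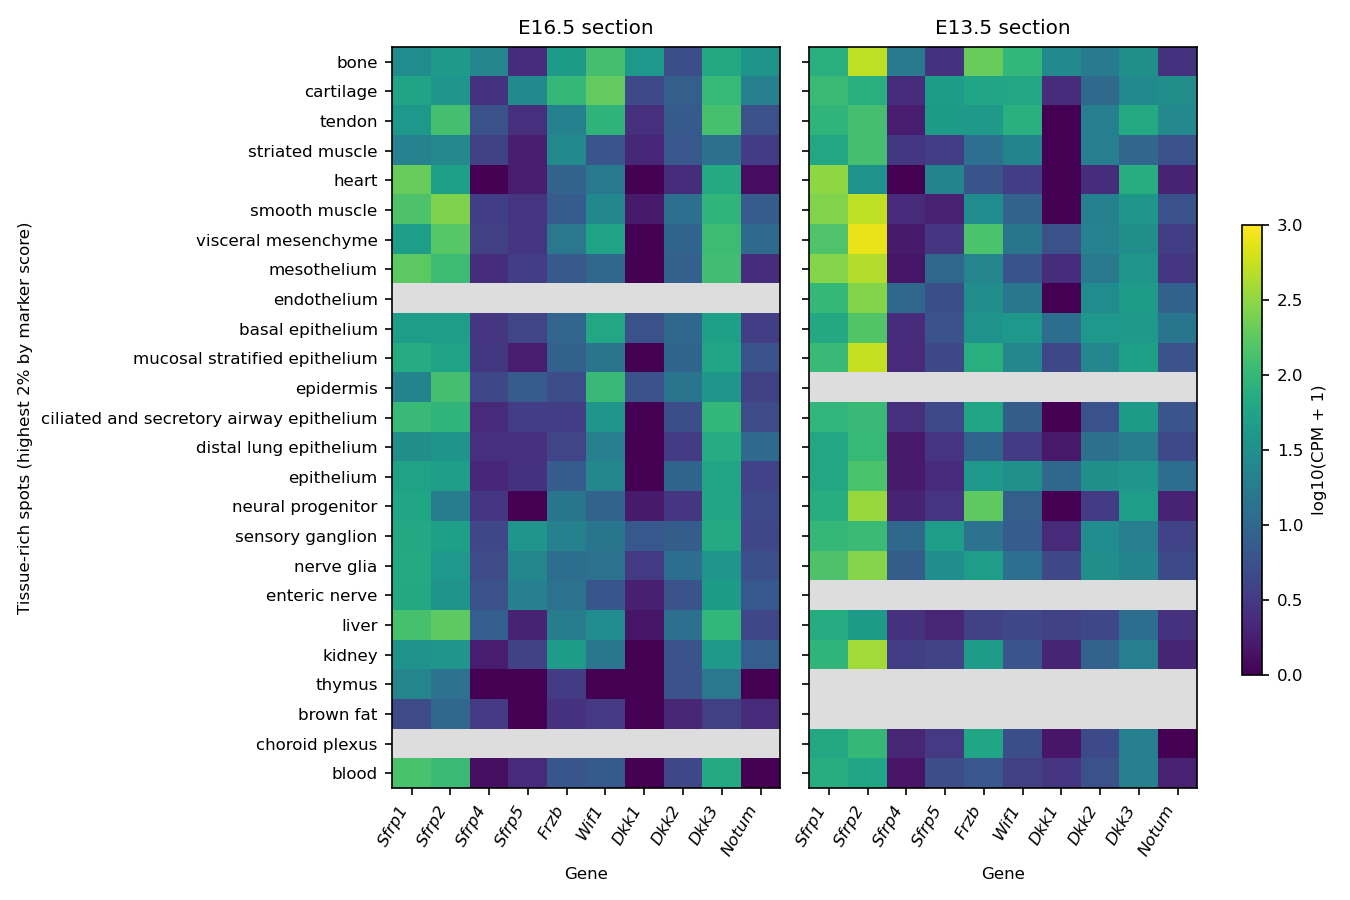
Level of each gene (columns) in marker-chosen tissue-rich spots (rows) of the E16.5 section and the E13.5 section, as log10(CPM + 1); grey rows were not usable in that section. Dkk1 is brightest in the bone row at both stages, Wif1 in the skeletal rows, Sfrp1 in the heart row and Sfrp2 in the smooth muscle and visceral mesenchyme rows.

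Dkk1, Wif1, Notum, Sfrp4 and Frzb had their highest level in bone-rich or cartilage-rich spots in at least 1 embryo section. The share of all genes that lead in these sets was not computed, so nothing is read from the number of members. Dkk1 led in bone-rich spots at both stages, with 38.3 CPM at E16.5 and 26.0 CPM at E13.5, and its interval there stood apart from that of the next set. The next sets were sensory ganglion-rich spots at E16.5, with 5.64 CPM, and basal epithelium-rich spots at E13.5, with 11.03 CPM. Of the 17 spots richest in Dkk1 at E16.5, 11 were bone-rich spots. Their most enriched genes were Dmp1 (52.1-fold over the remaining spots), made by osteocytes, and Spp1 (51.1-fold), osteopontin, and at E13.5 Ibsp (144-fold), bone sialoprotein, and Ifitm5 (61.6-fold), of osteoblasts. The bone-rich level of Dkk1 at E16.5 was 1.47 times that at E13.5, with an interval of 0.972 to 2.24 that includes no difference.

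Wif1 was highest in skeletal spots as well. At E16.5 cartilage-rich spots had 189 CPM, apart from bone-rich spots with 128 CPM, and epidermis-rich spots had 107 CPM. At E13.5 bone-rich spots had 94.9 CPM, tendon-rich spots 78.9 CPM and cartilage-rich spots 60.2 CPM, of which the leading pair had overlapping intervals. The spots richest in Wif1 were enriched at E16.5 in Col2a1 (19.4-fold), the main cartilage collagen, and at E13.5 in Ibsp (179-fold). In cartilage-rich spots the Wif1 level at E16.5 was 3.14 times that at E13.5.

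Notum had its highest levels at E16.5 in bone-rich spots, with 34.7 CPM, and cartilage-rich spots, with 19.5 CPM, the 2 intervals overlapping. At E13.5 it was highest in cartilage-rich spots, with 29.4 CPM, and tendon-rich spots, with 24.8 CPM, while bone-rich spots had 1.74 CPM (3 UMIs). In bone-rich spots the E16.5 over E13.5 ratio was thus 20.03, with a counting interval of 6.46 to 100.4. Genes most enriched in the Notum-richest spots at E16.5 were Bglap (25.8-fold), osteocalcin, and, among others, Acp5 (13.2-fold), an acid phosphatase of osteoclasts. The bone sets differ in their markers too, with 17364 CPM at E16.5 and 2680 CPM at E13.5, and the part of this in the Notum ratio was not tested.

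Sfrp4 was highest in bone-rich spots at both stages, with 22.0 CPM at E16.5, apart from the other sets, and 16.2 CPM at E13.5. At E13.5 sensory ganglion-rich spots with 9.43 CPM had an overlapping interval, and with the highest 5% of spots endothelium-rich spots led. Of the 40 spots richest in Sfrp4 at E13.5, 6 were bone-rich, and 1 spot held 21 of its 316 UMIs. Its richest spots at E16.5 were enriched in Spp1 (10.9-fold), and at E13.5 in Cxcl13 (25.9-fold), a chemokine, and Dbh (17.6-fold), an enzyme of noradrenaline synthesis. Frzb led in cartilage-rich spots at E16.5, with 99.1 CPM. At E13.5 bone-rich spots with 202 CPM and neural progenitor-rich spots with 178 CPM had overlapping intervals. Of the 65 spots richest in Frzb at E13.5, 19 were neural progenitor-rich spots, and their leading genes were Dbx1 and Dbx2, transcription factors of the neural tube. In neural progenitor-rich spots Frzb was at 13.8 CPM at E16.5 and 178 CPM at E13.5. Neural progenitor markers were lower there too, with 3815 CPM at E16.5 and 14047 CPM at E13.5, and their part in this difference was not tested.

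Sfrp5 was placed with peripheral sensory neurons and cartilage. At E16.5 it had 36.1 CPM in sensory ganglion-rich spots, 26.5 CPM in cartilage-rich spots and 23.5 CPM in nerve glia-rich spots. At E13.5 it had 45.9 CPM in sensory ganglion-rich spots, 44.8 CPM in cartilage-rich spots and 42.4 CPM in tendon-rich spots, and the leading intervals overlapped at both stages. Of the 30 spots richest in Sfrp5 at E16.5, 16 were sensory ganglion-rich spots, as were 21 of 65 at E13.5. The E16.5 spots were enriched in Scn11a (167-fold) and Scn10a (103-fold), sodium channels of pain-sensing neurons, and Prdm12 (160-fold), a transcription factor of such neurons, and the E13.5 spots in Avil (27.7-fold), an actin-binding protein of sensory neurons. Sensory ganglion-rich and nerve glia-rich spots shared 15 spots at E16.5 and 12 at E13.5, so these sets are not independent. In heart-rich spots Sfrp5 was at 0.746 CPM (3 UMIs) at E16.5 and 20.9 CPM at E13.5.

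**Figure D3:**
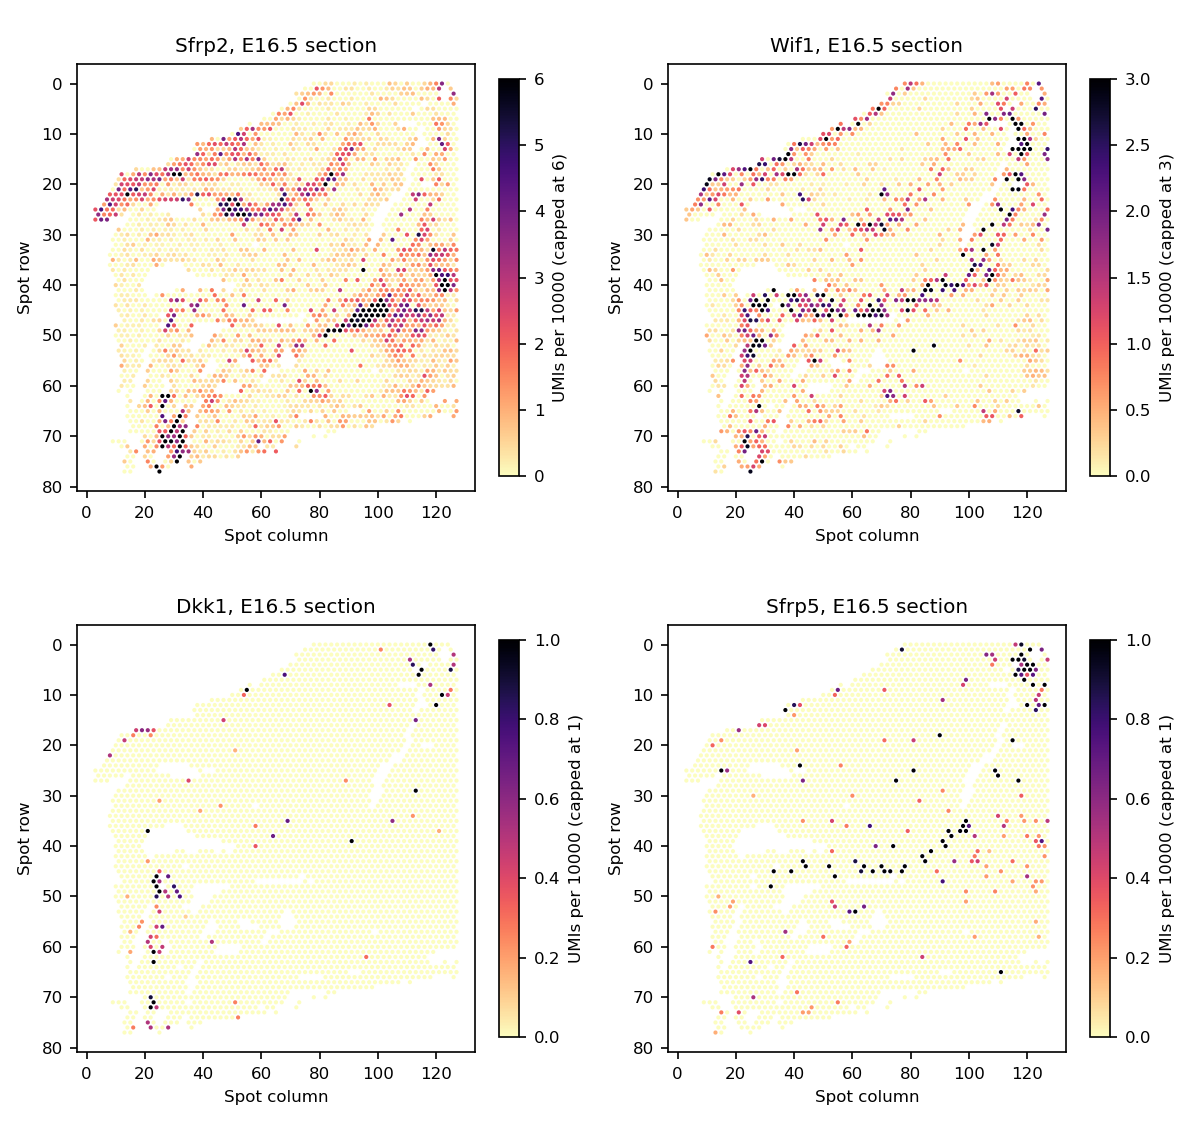
Spots of the E16.5 section by slide column and row, coloured by UMIs per 10000 of Sfrp2, Wif1, Dkk1 and Sfrp5, with each colour scale capped as its label says. Dkk1 lies in few spots, Wif1 follows long bands across the section and its upper edge, and Sfrp5 has its densest group near the upper right.

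Sfrp1 and Sfrp2 were placed in muscle walls and mesenchyme. Sfrp1 was highest in heart-rich spots, with 200 CPM at E16.5 and 310 CPM at E13.5, and mesothelium-rich spots with 176 CPM at E16.5 and 287 CPM at E13.5 had overlapping intervals. Smooth muscle-rich spots followed with 143 CPM at E16.5 and 268 CPM at E13.5. The lowest sets were brown fat-rich spots at E16.5, with 3.83 CPM, and striated muscle-rich spots at E13.5, with 60.5 CPM. The spots richest in Sfrp1 were enriched in Myl7 (14.1-fold) at E16.5 and Mybphl (16.4-fold) at E13.5, both of atrial heart muscle. Spink4 (15.6-fold) stood above Myl7 at E16.5, and Oc90 (15.7-fold) came next after Mybphl at E13.5. Heart-rich spots were 7 of these 72 spots at E16.5 and 8 of 65 at E13.5, more than any other set shared. Most spots richest in Sfrp1 thus lay outside the heart set. Sfrp2 was highest at E16.5 in smooth muscle-rich spots, with 259 CPM, and at E13.5 in visceral mesenchyme-rich spots, with 785 CPM, in each case apart from the next set. Its richest spots were enriched in Eln, the elastin gene, by 13.51-fold at E16.5 and 10.4-fold at E13.5, in Sost (26.4-fold) at E16.5, itself a Wnt antagonist, and in Barx1 (10.9-fold) at E13.5, a transcription factor of gut mesenchyme.

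The lower level of Sfrp2 in the E16.5 section was not found in all tissue sets. Neural progenitor-rich spots had 17.8 CPM at E16.5 and 342 CPM at E13.5, bone-rich spots 40.4 and 511 CPM, and mucosal epithelium-rich spots 53.5 and 545 CPM. Tendon-rich spots had 131 CPM at both E16.5 and E13.5, a ratio of 0.999. Some sets had more Sfrp2 at E16.5, among them heart-rich and blood-rich spots. Heart-rich spots had 49.5 CPM at E16.5 and 32.9 CPM at E13.5 (ratio 1.51, counting interval 1.13 to 2.02). Blood-rich spots had 111 and 57.6 CPM (ratio 1.92, 1.56 to 2.37). The mucosal set of E13.5 rested on weak markers, as given above, and the part of that in its Sfrp2 level was not tested.

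Dkk3 was spread over tendon, mesothelium, mesenchyme and heart. At E16.5 tendon-rich spots had 131 CPM, mesothelium-rich spots 118 CPM and visceral mesenchyme-rich spots 112 CPM, and at E13.5 heart-rich spots had 72.7 CPM and tendon-rich spots 67.9 CPM, with overlapping intervals of the leading 2 sets at each stage. The higher whole-section level at E16.5 was seen in some sets, among them cartilage-rich spots (103 CPM at E16.5 and 26.6 CPM at E13.5), mesothelium-rich spots (118 and 37.7 CPM) and visceral mesenchyme-rich spots (112 and 30.5 CPM). Heart-rich spots had 67.4 CPM at E16.5 and 72.7 CPM at E13.5, and the interval of their ratio, 0.755 to 1.14, includes no difference. The same held in basal epithelium-rich spots (ratio 1.26, interval 0.882 to 1.80) and mucosal epithelium-rich spots (1.18, 0.856 to 1.64). Dkk2 had no clear leading tissue. At E16.5 epidermis-rich spots had 13.2 CPM and the liver-list set 11.6 CPM, and at E13.5 basal epithelium-rich spots had 38.6 CPM and epithelium-rich spots 30.2 CPM, with overlapping intervals. With a gate of 4-fold on the markers, chosen after the data had been seen, stroma-rich spots came in and led for Dkk2 at both stages. The E16.5 spots richest in Dkk2 were enriched in Tshb (28.1-fold) and Cga, hormone genes of the pituitary.

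Sfrp2, Dkk2, Wif1 and Dkk1 varied with distance from epithelium in the E16.5 section. In spots rich in mucosal or basal epithelium Sfrp2 had 52.8 CPM, against 144 CPM at a distance of 1 spot, 145 CPM at 2, 140 CPM at 3 and 61.1 CPM at 4 or more spots. At E13.5 the same distances gave 377, 384, 395, 330 and 138 CPM. The E13.5 spots at distance 0 pooled unlike sets. Mucosal epithelium-rich spots, with their weak markers, had 545 CPM of Sfrp2. Basal epithelium-rich spots, with markers 24.1-fold above the remaining spots, had 150 CPM, below the levels at 1 to 3 spots. Dkk2 had 8.24 CPM at distance 0, 10.1 CPM at 1, 20.9 CPM at 2, 17.8 CPM at 3 and 5.58 CPM at 4 or more spots of the E16.5 section. Wif1 was highest at and next to these spots at E16.5, with 49.4 CPM at distance 0 and 53.0 CPM at 1. It had 42.4 CPM at 2, 38.2 CPM at 3 and 15.6 CPM at 4 or more. At E13.5 Wif1 fell with distance as well, with 34.6, 34.4, 28.3, 22.9 and 9.65 CPM. At E16.5, mucosal epithelium-rich spots not shared with smooth muscle-rich spots had 10.9 CPM of Wif1 (14 UMIs). Of the 72 basal epithelium-rich spots, 27 were also epidermis-rich, and the epidermis-rich set had 107 CPM. The part of skin in this Wif1 profile was not tested. Dkk1 was sparse, with 3.39 CPM (7 UMIs), 2.39, 0.235, 0 and 1.13 CPM over the same distances at E16.5. At E13.5 Dkk1 had 8.16, 6.55, 2.92, 1.99 and 1.54 CPM.

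Across the 44 tissue sets of both embryo sections, the levels of some members ran together. Pearson's r of log2(CPM + 1) was 0.66 for Wif1 and Notum, 0.64 for Sfrp2 and Dkk2, 0.58 for Sfrp1 and Sfrp2, and 0.56 for Sfrp2 and Frzb. Among 11515 genes, the gene with the most similar pattern was P4ha2 for Wif1 (r = 0.86), Col26a1 for Dkk2 (0.85), Tiam2 for Frzb (0.82), Tead2 for Sfrp2 (0.80) and Chpf2 for Notum (0.78). It was Timp2 for Dkk3 (0.75), Cacna1c for Sfrp1 (0.72), Col22a1 for Sfrp4 (0.72), Sp7 for Dkk1 (0.67) and Armh4 for Sfrp5 (0.66). The sets come from 2 libraries and share spots, so these values are a description without a test.

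In the neonatal esophagus the question was whether the antagonists lay in epithelium, muscle wall or the connective tissue between them. The labelled tissue was borne out by its markers: in the 10% of spots richest in each list, mucosal stratified epithelium markers had 47056 and 45124 CPM, smooth muscle markers 23755 and 24418 CPM, and striated muscle markers 11163 and 27035 CPM. Within each P0 section, spots in the highest 25% of an epithelium, muscle or stroma marker score were called rich in that tissue, and spots that qualified for more than 1 list went to the one in which they ranked highest. This gave 69 and 58 stroma-rich, 90 and 66 epithelium-rich, and 74 and 53 muscle-rich spots in the 2 sections. The median spot had 16370 and 16835.5 UMIs in stroma-rich, 39494 and 38936.5 UMIs in epithelium-rich, and 20660.5 and 23222 UMIs in muscle-rich spots, so the regions differ in depth and levels are given as CPM. Stroma-rich spots also held smooth muscle markers, at 1.28% and 0.807% of UMIs. A fit over both sections with the section as a block tested 12213 genes by edgeR's quasi-likelihood test with Benjamini-Hochberg adjustment. With 2 sections its p-values set a within-section difference against its variation between these sections, which may be technical. That variation was estimated mostly from all genes together, with 27.4 prior and 3 residual degrees of freedom. The p-values therefore rest little on the spread of a single gene. The regions were chosen by markers in the same counts.

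Of the 10 members, 6 had enough UMIs to be tested, namely Sfrp1, Sfrp2, Dkk3, Sfrp5, Dkk2 and Wif1. In epithelium-rich against muscle-rich spots, all 6 tested members passed as lower, a direction in which 28.6% of all tested genes passed, while 26.5% passed as higher and 55.1% in either direction. In stroma-rich against epithelium-rich spots 5 members passed as higher and 0 as lower, against 24.7% and 24.0% of all genes, 48.7% in either direction. In stroma-rich against muscle-rich spots 3 passed as higher and 2 as lower, against 7.42% and 7.79% of all genes, 15.2% in either direction. The sparse members among them passed the filter on low counts through the region in which they are high. These counts are therefore no support for a shift of the whole group. The filter also limits the adjusted p-values of Sfrp5, Dkk2 and Wif1 given below, which describe and do not support a difference. In a fit without that filter, Frzb, Notum and Sfrp4 did not pass in epithelium-rich against muscle-rich spots (adjusted p = 0.0596, 0.0590 and 0.844).

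Sfrp1 was highest in stroma-rich spots, with 321 and 217 CPM in the 2 sections, against 29.6 and 29.2 CPM in epithelium-rich and 158 and 113 CPM in muscle-rich spots. Within each section the counting intervals of the 3 regions did not overlap. It was 2.85 ± 0.17 log2 units higher in stroma-rich than in epithelium-rich spots (SE, adjusted p = 1.86e-15) and 0.89 ± 0.15 higher than in muscle-rich spots (adjusted p = 5.41e-05). Epithelium-rich against muscle-rich spots gave a log2 change of -1.96 ± 0.17 (adjusted p = 3.04e-11). The spots richest in Sfrp1 were enriched in P0 replicate 1 in Fgf7 (6.01-fold), a growth factor made by fibroblasts, and in Lyve1 (5.89-fold) and Esam (5.34-fold). In P0 replicate 2 Ctss (6.59-fold) led, and Prelp (5.46-fold), a matrix protein, was among the others. Among sets of the highest 10% of spots, stroma-rich spots led for Sfrp1 with 371 and 287 CPM. Their intervals overlapped those of endothelium-rich spots in replicate 1 (303 CPM) and visceral mesenchyme-rich spots in replicate 2 (210 CPM).

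Dkk3 followed the same order, with 156 and 142 CPM in stroma-rich, 41.8 and 46.6 CPM in epithelium-rich, and 90.7 and 63.9 CPM in muscle-rich spots. In replicate 1 the counting intervals of the 3 regions did not overlap, whereas in replicate 2 those of epithelium-rich (39.0 to 55.1 CPM) and muscle-rich spots (51.1 to 78.9 CPM) did. Its log2 change was 1.42 ± 0.15 in stroma-rich against epithelium-rich spots (adjusted p = 3.01e-09) and 0.85 ± 0.16 in stroma-rich against muscle-rich spots (adjusted p = 0.000220). In epithelium-rich against muscle-rich spots it was -0.57 ± 0.16 (adjusted p = 0.00363), a call that DESeq2's Wald test did not make (adjusted p = 0.0685).

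Sfrp2 was highest in muscle-rich spots, unlike Sfrp1 and Dkk3. It had 143 and 84.9 CPM in stroma-rich, 39.6 and 24.0 CPM in epithelium-rich, and 174 and 158 CPM in muscle-rich spots. The muscle-rich values were above the other regions in both sections. In replicate 1 the counting intervals of muscle-rich (155 to 195 CPM) and stroma-rich spots (122 to 166 CPM) overlapped, whereas in replicate 2 they did not. The log2 change was -2.13 ± 0.15 in epithelium-rich against muscle-rich spots (adjusted p = 1.49e-13), 1.49 ± 0.17 in stroma-rich against epithelium-rich spots (adjusted p = 5.86e-09) and -0.64 ± 0.15 in stroma-rich against muscle-rich spots (adjusted p = 0.00228). The last call turned on the kind of muscle: with smooth muscle markers alone the change was -1.29, and with striated muscle markers alone it was 0.37 (adjusted p = 0.261). It was also lost with DESeq2's Wald test (0.0641), without the section block (0.101), with the highest 15% of spots (0.0860) and without spots far from epithelium (0.0669). In the sets of the highest 10% of spots, Sfrp2 had 226 and 300 CPM in smooth muscle-rich spots, against 78.6 and 89.3 CPM in striated muscle-rich spots of the 2 sections. Enteric nerve-rich spots had 224 and 228 CPM of Sfrp2, with intervals overlapping those of smooth muscle-rich spots, and nerve glia-rich spots had 216 and 124 CPM. The smooth muscle and enteric nerve sets shared 21 of 37 and 16 of 27 spots, and the part of each in the Sfrp2 level was not tested. Its richest spots were enriched in Slitrk3 (12.2-fold and 24.8-fold) in both sections, in Vip (8.13-fold), a neuropeptide, and Pln (7.69-fold), phospholamban, in replicate 1, and in Chrm2 (15.2-fold), an acetylcholine receptor of smooth muscle, in replicate 2.

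**Figure D4:**
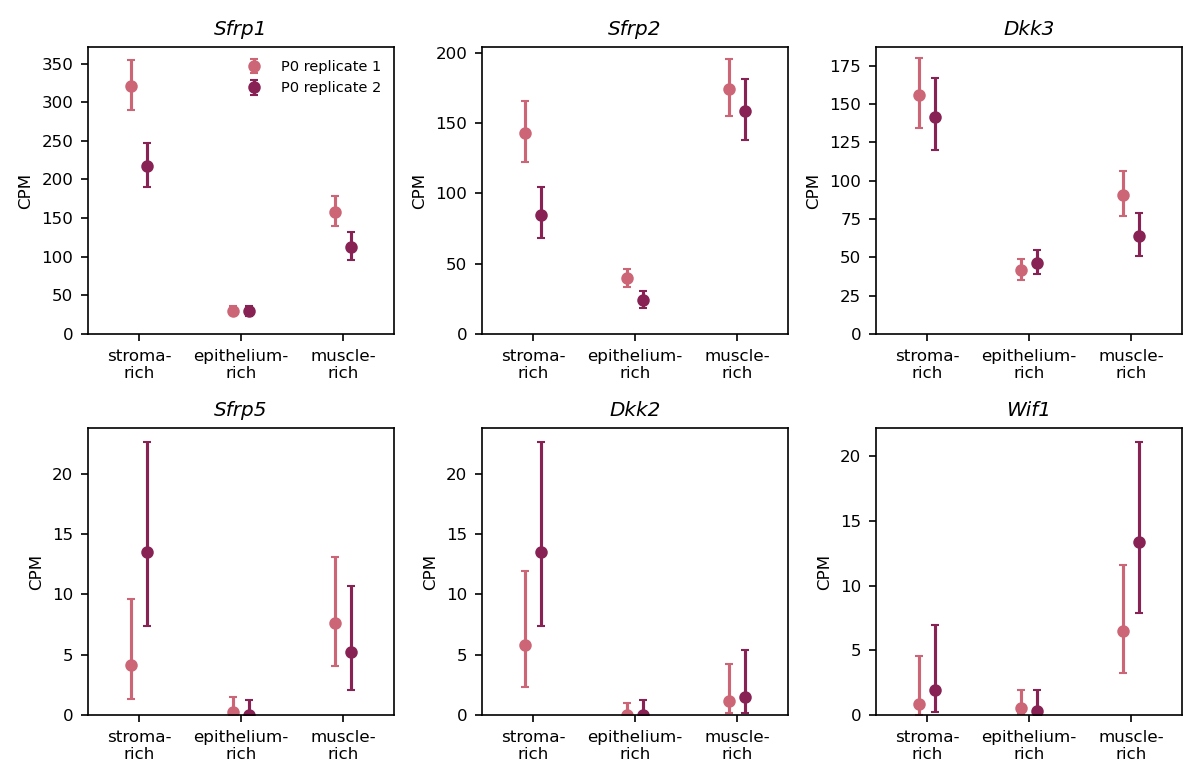
Sfrp1, Sfrp2, Dkk3, Sfrp5, Dkk2 and Wif1 in the stroma-rich, epithelium-rich and muscle-rich spots of P0 replicates 1 and 2, in CPM with exact Poisson 95% intervals. Sfrp1 and Dkk3 peak in stroma-rich spots, Sfrp2 and Wif1 in muscle-rich spots, and all 6 genes are lowest or near 0 in epithelium-rich spots.

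Wif1 was almost confined to muscle-rich spots at P0. It had 1 and 2 UMIs in stroma-rich (0.826 and 1.93 CPM), 2 and 1 UMIs in epithelium-rich (0.542 and 0.347 CPM), and 11 and 18 UMIs in muscle-rich spots (6.48 and 13.4 CPM). Over both sections the epithelium-rich level was 0.0480 times the muscle-rich level (counting interval 0.00935 to 0.155). The fit, under the filter limit given above, gave a log2 change of -3.98 ± 0.74 (adjusted p = 3.42e-05). Stroma-rich against muscle-rich spots gave -2.89 ± 0.80 (adjusted p = 0.0118), which DESeq2's Wald test did not call (adjusted p = 0.193). Within muscle, smooth muscle-rich spots had 2 and 1 of its UMIs, against 8 and 18 in striated muscle-rich spots. In replicate 2, smooth muscle-rich spots had 0 UMIs of Frzb and of Notum, against 10 each in striated muscle-rich spots, but in replicate 1 neither set had more than 1 UMI of either gene.

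Dkk2 and Sfrp5 were nearly absent from epithelium-rich spots. Many of their UMIs lay in nerve glia-rich spots and in sets overlapping them, as described after their region levels. Dkk2 had 7 and 14 UMIs in stroma-rich spots (5.78 and 13.51 CPM), 0 and 0 UMIs in epithelium-rich spots, and 2 and 2 UMIs in muscle-rich spots (1.18 and 1.49 CPM). Against a limit of 3 UMIs over both sections in epithelium-rich spots, it was at least 20.5-fold higher in stroma-rich spots and at least 2.88-fold higher in muscle-rich spots. The fit, under the filter limit given above, called stroma-rich over epithelium-rich (adjusted p = 1.02e-05) and epithelium-rich under muscle-rich spots (adjusted p = 0.0337). It also called stroma-rich over muscle-rich spots (log2 change 2.64 ± 0.78, adjusted p = 0.0197). The size of a change against a region with no UMI depends on the prior count. The comparisons with muscle-rich spots were lost with DESeq2's Wald test (adjusted p = 0.213 for stroma-rich and 0.0503 for epithelium-rich spots), and across all alternatives that lost them the adjusted p reached 0.738 and 0.324.

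Sfrp5 had 5 and 14 UMIs in stroma-rich (4.13 and 13.51 CPM), 1 and 0 UMIs in epithelium-rich, and 13 and 7 UMIs in muscle-rich spots (7.65 and 5.203 CPM). Over both sections stroma-rich spots had 55.5 times the epithelium-rich level (counting interval 8.83 to 2307, adjusted p = 0.000113 in the fit). Epithelium-rich spots had 0.0232 times the muscle-rich level (adjusted p = 0.000189 in the fit). Both adjusted p-values carry the filter limit given above. Stroma-rich and muscle-rich spots differed by 0.27 ± 0.60 log2 units (adjusted p = 0.828), with opposite order in the 2 sections.

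The UMIs of Dkk2 and Sfrp5 in P0 replicate 2 came from a small area. Spots at 4 or more spot distances from epithelium-rich spots, 70 in that replicate, held 22 of its 25 Dkk2 UMIs and 22 of its 22 Sfrp5 UMIs, whereas in replicate 1 the 20 such spots held 2 of 12 Dkk2 UMIs and 6 of 26 Sfrp5 UMIs. In these spots of replicate 2 the nerve glia markers had 227 CPM, against 3.82 CPM in epithelium-rich spots, endothelial markers 677 CPM, blood markers 2391 CPM and liver markers 347 CPM. Nerve glia-rich spots of replicate 2 held 21 of the 22 Sfrp5 UMIs (33.9 CPM) and 20 of the 25 Dkk2 UMIs (32.3 CPM). The endothelium-rich set held 13 of the Sfrp5 and 19 of the Dkk2 UMIs (33.2 CPM of Dkk2). It shared 13 of its 27 spots with the nerve glia set, which shared 17 with the enteric nerve set. The liver-list set held 13 of the Sfrp5 and 20 of the Dkk2 UMIs. Its 34.4 CPM was the highest Dkk2 level of any set, with an interval overlapping those of the endothelium and nerve glia sets. It shared 13 spots with the endothelium set and 10 with the nerve glia set. In replicate 1 the enteric nerve-rich and nerve glia-rich spots, with 28 of 37 spots in common, held 12 and 11 of the 26 Sfrp5 UMIs. For Dkk2 in replicate 1 the stroma set of the highest 10% of spots led with 8.51 CPM (5 UMIs). Nerve glia-rich spots there had 7.21 CPM (6 UMIs), with overlapping intervals. The part of these tissues in the results was not tested. Without the distant spots, an alternative chosen after the data had been seen, Dkk2 and Sfrp5 were no longer among the tested genes, and 3 of the tested members remained called in stroma-rich against epithelium-rich spots. The sections consist of separate pieces, and the largest piece of replicate 2, of 99 spots, held 23 of its Dkk2 UMIs and 19 of its Sfrp5 UMIs but 1 UMI each of Wif1, Frzb and Notum. The next piece, of 77 spots, with 4712 CPM of striated muscle markers against 643 CPM in the largest, held 6 UMIs of Wif1, 9 of Frzb and 9 of Notum and none of Dkk2.

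**Figure D5:**
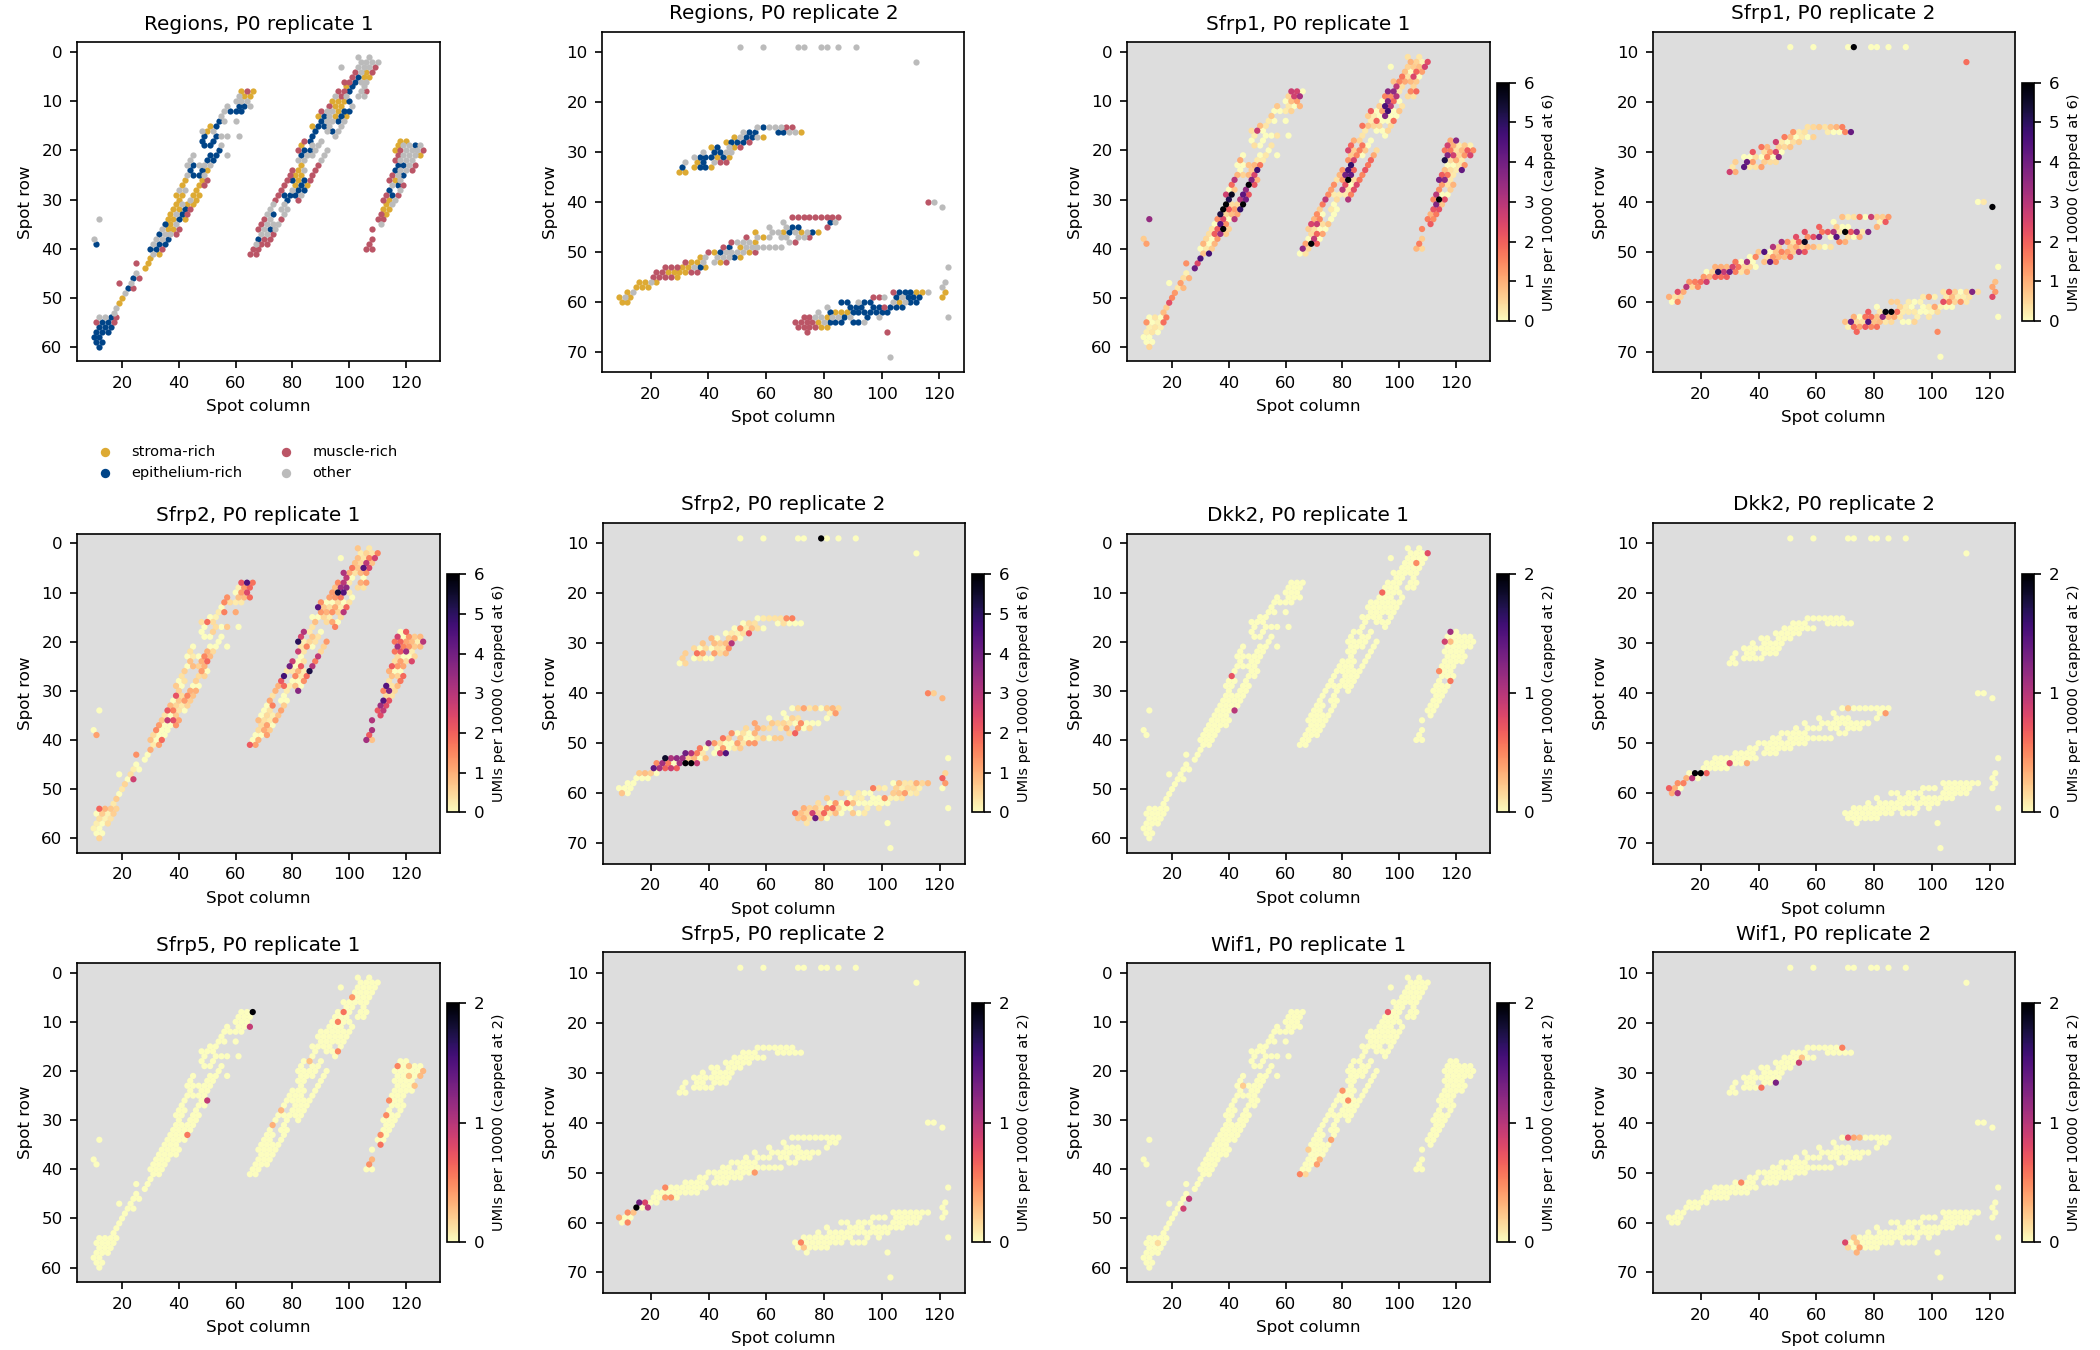
Maps of the 2 P0 sections by slide column and row, with the marker-chosen regions and the UMIs per 10000 of Sfrp1, Sfrp2, Dkk2, Sfrp5 and Wif1, colour scales capped as labelled. Sfrp1 and Sfrp2 reach all larger pieces, whereas Dkk2 and Sfrp5 in replicate 2 gather at the lower left end of the middle piece.

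The abundant members rose from epithelium-rich spots to the spots next to them, which are mixtures and not beyond an epithelial border. Epithelium markers had 17294 and 17733 CPM in epithelium-rich spots and still 10169 and 10685 CPM at 1 spot. Stroma markers had 2877 and 2819 CPM in epithelium-rich spots and 10987.5 and 13423 CPM at 1 spot. The part of this change of mixture in the levels below was not tested. Epithelium-rich spots of the P0 sections had 29.6 and 29.2 CPM of Sfrp1, against 129 and 135 CPM at a distance of 1 spot. Dkk3 had 41.8 and 46.6 CPM in epithelium-rich spots and 102 and 95.01 CPM at 1 spot, and Sfrp2 39.6 and 24.0 CPM and then 98.2 and 72.9 CPM. At 2 spots Sfrp2 had 102 and 103 CPM. In the 10% of spots highest in mucosal stratified epithelium markers, Sfrp1 was at 25.4 and 20.6 CPM, which is 0.130 and 0.131 times its level in smooth muscle-rich spots. For Sfrp2 this ratio was 0.0952 and 0.0514, and for Dkk3 0.272 and 0.307.

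Other genes of the Wnt pathway were counted from lists that hold none of the 10 members. The filter limit given above also applies to sparse genes of these lists, among them Rspo1, Rspo3, Wnt2, Shisa2 and Shisa3. Their adjusted p-values describe and do not support a difference. In epithelium-rich against muscle-rich spots, 10 of 19 Wnt ligands were tested, of which 5 passed as higher and 2 as lower, where 26.5% of all genes passed as higher, 28.6% as lower and 55.1% in either direction. The higher ligands of largest change were Wnt4 (log2 change 3.14, adjusted p = 9.84e-17) and Wnt7b (2.85, 2.73e-10), and the lower ones Wnt5a (-2.89, 2.92e-12) and Wnt11 (-1.19, 0.00535). The median log2 change of the tested ligands was 0.58, against -0.03 over all genes. Of 14 tested of 15 receptors and co-receptors, 3 were higher, among them Fzd10 (2.04, adjusted p = 6.34e-07) and Fzd6 (1.85), and 5 lower, among them Fzd4 (-3.21, adjusted p = 1.36e-10) and Ror2 (-2.89), with a median of 0.02. These 8 of 14 receptors are close to the share of all genes, and nothing is read from them.

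Of 8 tested of 10 Wnt targets and feedback genes, 1 was higher and 5 were lower in the same comparison, with a median of -1.13. The higher gene was Rnf43 (1.32, adjusted p = 0.00232), a ligase that removes Frizzled receptors, and Tnfrsf19 (-2.45) and Nkd1 (-2.08, adjusted p = 1.33e-12), a feedback inhibitor, were the lower genes with the largest change. Both tested R-spondins, Rspo3 (-4.39, adjusted p = 8.85e-07) and Rspo1 (-2.41), were lower. They are sparse, with 45 and 23 UMIs of Rspo3 and 39 and 18 UMIs of Rspo1 in the P0 sections. Such genes can pass the filter on low counts through the region in which they are high, so nothing is read from their shared direction. Of 5 tested of 10 other antagonists and Dkk receptors, 2 were higher and 2 lower. Apcdd1 (1.63, adjusted p = 1.04e-08), a membrane inhibitor of Wnt signalling, and Kremen1 (0.48, adjusted p = 0.00616), which binds Dkk proteins, were higher in epithelium-rich spots, and Shisa2 (-3.41) and Sostdc1 (-1.81) were lower.

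In stroma-rich against epithelium-rich spots 24.7% of all genes passed as higher, 24.0% as lower and 48.7% in either direction. Of 10 tested ligands 3 passed as higher and 5 as lower, led by Wnt5a (2.77) and Wnt2 (2.46) and by Wnt7b (-2.68) and Wnt4 (-2.30). Of 14 tested receptors 5 were higher and 2 lower, close to the share of all genes, and nothing is read from them. Of 8 tested targets and feedback genes 5 were higher and 1 lower, with Nkd1 (2.63) and Tcf7 (2.40) the higher genes of largest change. Both tested R-spondins were higher, under the filter limit given above. Of 5 tested other antagonists and Dkk receptors 3 were higher and 1 lower. In stroma-rich against muscle-rich spots 7.42% of all genes passed as higher, 7.79% as lower and 15.2% in either direction. Wnt4 (0.84) was the 1 of 10 tested ligands to pass. Receptors (14 tested) and targets and feedback genes (8 tested) each had 1 higher and 1 lower. Of 5 tested other antagonists and Dkk receptors 5 passed, with Shisa3 (2.30) and Apcdd1 (1.27) among 3 higher and Shisa2 (-1.55) and Kremen1 (-0.54) the 2 lower. Lgr5 itself was at 5.24 CPM at E13.5, 3.73 CPM at E16.5, and 6.63 and 8.02 CPM in the P0 sections.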

How the data were processed

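The deposited files hold, per the file headers, raw UMI counts per gene and spot from Space Ranger 2.0.0, with the genome build mm10 per the submitters' processing notes. All values were whole numbers, the authors had applied no normalization, and only spots over tissue are in the matrices. Spots with at least 500 UMIs were kept. Sections were grouped and numbered by their titles, and every section is a separate sample.

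Levels are CPM with exact Poisson 95% intervals, and ratios carry exact conditional 95% intervals, both for counting error only. Marker lists were scored per spot as the mean of log(1 + UMIs per 10000). Sets of the highest 2% of spots (10% at P0) were used if at least 3 markers had 20 or more UMIs there and the summed markers stood at least 5-fold (at P0 2-fold) above the remaining spots. P0 regions were the highest 25% of spots by score. Their UMIs, with those of the remaining spots, were summed to 8 region sums and tested by edgeR 4.0.16 in R 4.3.3 (TMM, filterByExpr, quasi-likelihood F test, section as a block), with 31 marker genes left out and Benjamini-Hochberg adjustment over 12213 genes at a threshold of 0.05; DESeq2 1.42.0 was an alternative. Standard errors were derived from the F statistic and are approximate. The scripts were tested on simulated data. No doublet calling was done, since spots are areas.

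All 10 members are named. Enriched genes are those of the 5 largest ratios in spots rich in a member (with at least 100 UMIs in the section, and 50 UMIs of the enriched gene, 30 at P0), from which examples are given. Similar genes have the highest correlation among genes with at least 500 UMIs in each embryo section. Of each Wnt list, the 2 genes of largest change in each direction are named. The members and lists were chosen with earlier results of these data known. Tissue images were not used here.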

Additional observations from a re-analysis of the deposited data

Results flagged for a closer look

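Wif1 and Frzb changed side between the 2 embryo sections in a pair of tissue contrasts; there is 1 section a stage, so the difference between stages was not tested. Wif1 in mucosal epithelium-rich over smooth muscle-rich spots had a ratio of 0.464 at E16.5 (counting interval 0.229 to 0.891) and 3.07 at E13.5 (1.69 to 5.76). The mucosal set had 11042 CPM of its markers at E16.5 and 216 CPM at E13.5. Wif1 in smooth muscle-rich over striated muscle-rich spots had a ratio of 4.72 at E16.5 (2.46 to 9.65) and 0.359 at E13.5 (0.194 to 0.636). Frzb in the same contrast had a ratio of 0.252 at E16.5 (0.115 to 0.494) and 2.47 at E13.5 (1.504 to 4.21). Spots shared by both sets of a contrast were left out of these ratios.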

How the results depend on the processing

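In epithelium-rich against muscle-rich P0 spots, between 4 and 6 members were called under every alternative, with 6 as reported. In stroma-rich against epithelium-rich spots 5 were called as reported and 4 or 5 under the other alternatives, but 3 without spots 4 or more from an epithelium-rich spot, where Dkk2 and Sfrp5 were no longer tested; that alternative was chosen after seeing the data. In stroma-rich against muscle-rich spots the count of 5 was least stable: it was 2 with DESeq2's Wald test, 3 with smooth muscle markers alone, 3 with striated muscle markers alone and 3 without the distant spots. Without the replicate block, which pairs the regions of a section, this count was 3, and it was 5 in each of the other 2 comparisons.

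The direction turned for Sfrp2 in stroma-rich against muscle-rich spots with striated muscle markers alone (log2 change 0.37), for Sfrp5 there with smooth muscle markers alone (-0.15), and for Wif1 in stroma-rich against epithelium-rich spots with the highest 15% of spots (-0.34); the last 2 had not passed as reported, and the cause was not tested. Leaving out 1 P0 section leaves no residual spread, so it gives log2 ratios and no calls. These ran from -1.96 to -2.43 for Sfrp1 and from -2.15 to -2.73 for Sfrp2 in epithelium-rich against muscle-rich spots, and from -0.81 to 1.30 for Sfrp5 in stroma-rich against muscle-rich spots, the 1 case in which the 2 sections differed in direction. In that comparison Sfrp2 was at -0.90 without replicate 1 and -0.28 without replicate 2.

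Between the embryo sections 4 members were past 2-fold, and 2 with TMM factors. Of the 20 leading tissues of the embryo sections, 17 were kept with the highest 1% of spots, 15 with the highest 5%, 20 with at least 2000 UMIs per spot, 17 with a mean over spots and 18 with a 4-fold marker gate chosen after seeing the data. Dkk1 in bone and Sfrp1 in heart led under all 5 of these. Depth limits the P0 sections, where 7 members, Dkk1 with none among them, had under 30 UMIs in each section.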
